A study of Mus musculus with 53 samples.

Results

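The arrays compared here are 4 of the 53 in a series of mouse T-cell lymphomas from 15 lymphoma-prone backgrounds. They were chosen by their genotype label: 2 arrays come from tumours of E2A knock out mice, and 2 from tumours of mice labelled rag E2A knock out. Both groups therefore lack E2A, and the second also carries a Rag deletion; the labels do not say whether Rag1 or Rag2 was deleted. All 4 tumours were lymphoblastic T-cell tumours of C57BL/6 mice, received no treatment and are labelled negative for the homeobox factor TLX1. The titles number the arrays 1 and 2 (E2A knockout) and 3 and 4 (Rag with E2A knockout), and these numbers are used below. The labels give no age or sex. Nor do they state that the arrays of a genotype stem from different mice. Sex-linked genes, given below, differed between the 2 arrays of each genotype as between a female and a male mouse. A p-value here rests on the scatter within the 15 backgrounds over all 53 arrays, part of which may be technical. Expression was read as signal intensity for 22690 probe sets per array, of which 16131 were tested, and every value below is a log2 signal intensity unless stated otherwise.

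E2A, encoded by Tcf3, is a basic helix-loop-helix protein of the E-protein family that binds E-box sites and guides early lymphocyte development. RAG1 and RAG2 form the recombinase that joins V, D and J segments into functional antigen receptor genes. Without it a thymocyte cannot make a rearranged T-cell receptor beta chain, so neither the pre-T-cell receptor, which pairs that chain with the invariant pre-T-cell receptor alpha chain, nor a mature receptor reaches the surface. Signals from these receptors pass through the CD3 chains and the kinases LCK and ZAP70 and switch on response genes such as Egr1, Nr4a1, Cd5 and Id3. The comparison asks what differs between E2A-deficient tumours that could rearrange their receptor genes and those that could not.

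The 4 arrays did not fall into 2 groups by genotype. Across the 16131 probe sets tested, E2A knockout array 2 and Rag with E2A knockout array 3 were the most alike pair, with a Pearson correlation of 0.965 and 1.85% of probe sets apart by 2-fold or more. E2A knockout arrays 1 and 2 correlated at 0.950, with 3.15% of probe sets apart by 2-fold, and Rag with E2A knockout arrays 3 and 4 at 0.953, with 2.95%. The least alike pair was arrays 1 and 3, at 0.928 and 4.97%. Among all 53 arrays the nearest to array 1 was a Tal1 with LMO2 tumour (0.954), and the nearest to array 4 was a NUP98-HOXD13 tumour (0.958). The array of the same genotype ranked 2, 5, 2 and 3 by correlation for arrays 1, 2, 3 and 4. The most alike and the least alike of the 6 pairs thus both crossed genotype, while partners of a genotype still ranked high.

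**Figure D1:**
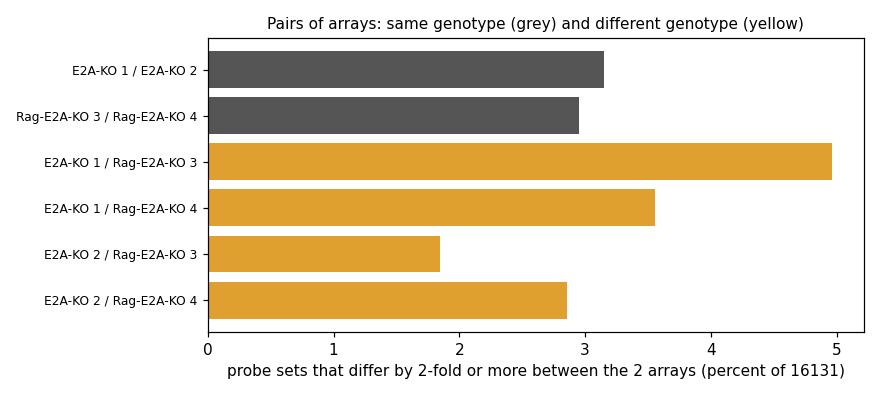
Percent of the 16131 tested probe sets that differ by 2-fold or more between 2 arrays, for the 6 pairs among the 4 arrays; grey bars are pairs of the same genotype and yellow bars pairs of different genotype. The smallest bar, 1.85%, joins E2A knockout array 2 and Rag with E2A knockout array 3, and the largest, 4.97%, joins arrays 1 and 3.

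Array medians of 469 and 468 (E2A knockout) and 453 and 445 (Rag with E2A knockout) on the linear scale lay within the range of the other 49 arrays, whose median was 496. The beta-actin control probe sets, whose 3' signal exceeds the 5' signal more in degraded RNA, gave log2 ratios of 0.56, 0.37, 0.23 and 0.37 in array order. T-cell identity was present on all 4 arrays. Thy1, the thymocyte surface marker, read 13.48, 13.40, 13.34 and 13.14. The summed level of 6 T-cell marker genes was 15.19, 15.22, 15.17 and 14.80 (log2), against 12.49 to 15.34 on the other arrays. In 3 of the 6 both Rag with E2A knockout arrays lay below both E2A knockout arrays (28.7% of all probe sets), and in 0 above (16.4%). Cd5 and Cd2 had the largest differences, at -1.89 and -0.99. Each genotype held 1 array with the X-inactivation transcript Xist high and 1 with Y-linked genes high. Xist (1427262_at) read 12.72 and 12.50 on arrays 1 and 3 and 7.20 and 6.86 on arrays 2 and 4. Eif2s3y, a Y-linked translation factor gene, ran the other way, at 6.94 and 6.62 on arrays 1 and 3 and 9.49 and 10.16 on arrays 2 and 4. Sex-linked expression was therefore balanced between the genotypes.

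The targeted genes were examined in every array. Tcf3 was low in both groups. Its probe set 1452542_x_at read 7.64 and 7.67 in E2A knockout tumours and 8.02 and 7.92 in Rag with E2A knockout tumours, below all 49 other arrays (8.60 to 10.33). Against the mean of the other 13 backgrounds it fell by 1.84 ± 0.24 (log2 difference, SE of the fit over 53 arrays; limma adjusted p = 3.92e-06) in E2A knockout tumours and by 1.52 ± 0.24 (adjusted p = 0.000137) in Rag with E2A knockout tumours. Both calls held without either array of the group. A further Tcf3 probe set, 1427764_a_at, read 8.04, 8.10, 8.51 and 8.39 and also lay below all 49 other arrays. Its fall passed in both groups, but with the Rag deletion not without array 3 or 4. The brightest, 1426297_at, read 9.53, 10.05, 10.04 and 9.79, and only array 1 lay below the 49 others (9.69 to 11.51). Against the same mean it fell by 0.91 for E2A knockout alone (limma adjusted p = 0.0101). With the Rag deletion it fell by 0.79 (limma adjusted p = 0.0305). The first call was lost without array 1, the second without array 3 or 4 and after median centring or quantile normalization. Between the 2 genotypes the Tcf3 probe sets differed by 0.12 to 0.38, with limma adjusted p = 0.999 for each.

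Rag message was not missing from the Rag with E2A knockout tumours. Rag1 read 12.47 and 11.98 in E2A knockout tumours and 12.15 and 11.89 in Rag with E2A knockout tumours, a difference of -0.20 ± 1.13. Rag2 read 9.77 and 8.38 against 9.32 and 9.16, a difference of 0.16 ± 0.41. The other 49 arrays ran from 7.47 to 13.35 for Rag1 and from 6.88 to 11.13 for Rag2, so all 4 tumours lay within the range of the series. A knockout can leave a transcript outside the deleted part, and where these probe sets lie relative to it is not given, so neither gene checks the Rag label.

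The T-cell receptor probe sets read lower on the Rag with E2A knockout arrays. The gene table names 13 such probe sets: 5 for gamma, 6 for alpha and 2 for beta chain segments, and 0 for delta. Any receptor probe set without a name in that table is not counted, and its direction is not known. All 13 were tested, and all 13 had a lower mean in Rag with E2A knockout tumours, with a median difference of -1.60 against -0.05 over all probe sets tested. In 11 of the 13, both Rag with E2A knockout arrays lay below both E2A knockout arrays (called separated lower from here on), a pattern found for 28.7% of all probe sets. In 7 of them the difference also reached 2-fold, beside 0.595% of all probe sets; 16.4% of all were separated in the higher direction, 0.601% with 2-fold or more. None of the 13 passed limma's test after Benjamini-Hochberg adjustment, where 0 of 16131 probe sets did (0%) in either direction; 4 had an unadjusted p below 0.05, as did 809 probe sets in all (5.02%). An exact permutation test of 2 arrays against 2 cannot go below p = 0.333. Several probe sets share a gene, and which part of a receptor gene each one reads is not given, so the 13 are not independent.

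**Figure D2:**
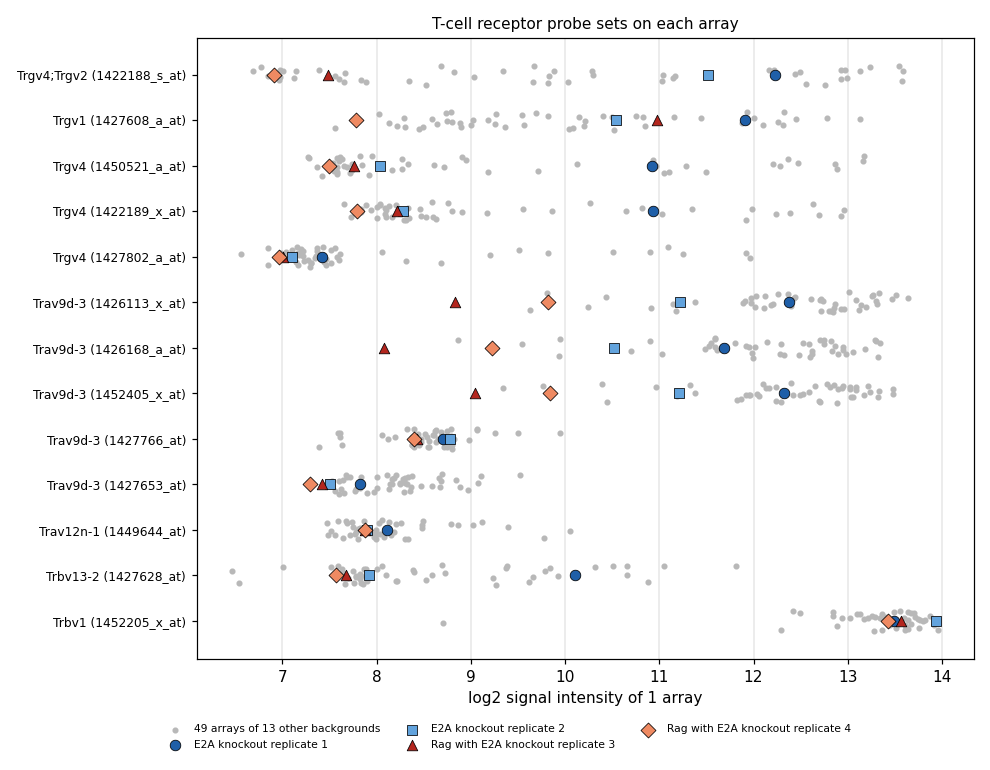
Log2 signal intensity of the 13 T-cell receptor probe sets on each array; blue symbols are the 2 E2A knockout arrays, red and orange symbols the 2 Rag with E2A knockout arrays, and grey points the 49 arrays of 13 other backgrounds (jittered vertically). For the probe set shared by Trgv4 and Trgv2 the blue symbols lie at 12.23 and 11.51 and the red and orange ones at 7.48 and 6.91. On the 3 bright Trav9d-3 probe sets the triangle of array 3 lies left of every grey point.

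The gamma chain gave the largest gap. The probe set shared by the variable segments Trgv4 and Trgv2 read 12.23 and 11.51 in E2A knockout tumours and 7.48 and 6.91 in Rag with E2A knockout tumours. The difference was -4.67 ± 1.85, or 25.5-fold (limma adjusted p = 0.886). Both Rag with E2A knockout arrays lay near the floor of the series (6.69) and both E2A knockout arrays above its median (9.82), but the other backgrounds spanned 6.69 to 13.58, and the spread within groups over 53 arrays was 1.92 (SD) against 0.46 within these 4. Probe sets that name Trgv4 alone behaved differently. 1450521_a_at read 10.92, 8.03, 7.77 and 7.50 in array order, so that array 1 stood apart and arrays 2, 3 and 4 lay close together. 1422189_x_at gave the same order, at 10.93, 8.28, 8.21 and 7.80. The third, 1427802_a_at, was dim on all 4 arrays, at 6.96 to 7.42. Trgv1 did not separate the genotypes: it read 11.91 and 10.54 in E2A knockout tumours and 10.98 and 7.78 in Rag with E2A knockout tumours, so array 3 kept a high Trgv1 signal.

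The alpha chain was lower on both Rag with E2A knockout arrays. Of the 5 probe sets named for the variable segment Trav9d-3, 3 were bright in the series. 1426113_x_at read 12.38 and 11.22 in E2A knockout tumours and 8.84 and 9.82 in Rag with E2A knockout tumours (-2.47 ± 0.71, 5.55-fold; limma adjusted p = 0.529). 1426168_a_at read 11.69 and 10.52 against 8.08 and 9.23, and 1452405_x_at read 12.33 and 11.21 against 9.05 and 9.84. The groups did not overlap on any of the 3, and array 3 lay below all 49 other arrays on each. The other 2 Trav9d-3 probe sets were dim, at 7.30 to 8.78, and differed by -0.31 and -0.32. On the dim 1427653_at arrays 2, 3 and 4 all lay below the 49 other arrays, so E2A knockout array 2 shared that low reading. Trav12n-1 was equally dim, at 8.11, 7.90, 7.88 and 7.88.

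Set against the rest of the series, the bright alpha chain probe sets passed the test. In this contrast with the mean of 13 other backgrounds, 294 probe sets were lower (1.82%) and 210 higher (1.30%) in Rag with E2A knockout tumours by limma. At an unadjusted p below 0.05 the share was 19.9% in either direction. After median centring of the arrays the split was 178 lower and 425 higher. Without array 3 the counts were 10 lower and 12 higher, and without array 4 they were 25 and 75. The probe set 1426113_x_at fell by 2.88 ± 0.51 (adjusted p = 0.000856). For 1426168_a_at the difference was -3.18 ± 0.57 (adjusted p = 0.000999) and for 1452405_x_at it was -2.73 ± 0.51 (adjusted p = 0.0013). In E2A knockout tumours, where 204 probe sets were lower (1.26%) and 258 higher (1.60%), the same 3 probe sets differed from that mean by -0.40, -0.73 and -0.41, and 0 of the 13 passed (15.8% of all probe sets had an unadjusted p below 0.05). Those counts fell to 32 lower and 18 higher without array 1, and to 72 and 123 without array 2. The 2 contrasts share their 13 comparison backgrounds, and the direct difference between the genotypes did not pass. Without array 3 the 3 calls were lost, at -2.39, -2.61 and -2.33 (adjusted p = 0.183 to 0.196).

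The beta chain was split. Trbv13-2 read 10.11 and 7.92 in E2A knockout tumours and 7.68 and 7.57 in Rag with E2A knockout tumours, so only array 1 was high. The probe set named for Trbv1 was bright on all 4 arrays, at 13.49, 13.93, 13.57 and 13.43, near its median of 13.49 on the other arrays. Its difference of -0.21 ± 0.61 changed sign, to 0.01, without array 2. The Rag with E2A knockout arrays thus read low for alpha and for Trgv4 with Trgv2, but not for Trbv1.

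A gene inside the beta chain locus followed array 1. Prss2, which encodes a trypsinogen, lies next to the diversity segment Trbd1 in the RefSeq gene order (GRCm38.p6), with 34 beta chain segments before it and 19 after it. Its probe set 1433459_x_at read 11.88 on array 1 and 7.64, 7.61 and 7.54 on arrays 2, 3 and 4. The other 3 Prss2 probe sets read 11.56 to 11.70 on array 1 and 8.02 to 8.81 elsewhere. Only 1 of the 49 other arrays, at 12.13, was higher than array 1 on 1433459_x_at. Array 1 thus shared high Prss2, Trbv13-2 and Trgv4 signal. Related trypsinogen genes lie beside Prss2 in this order, and probe sets of this kind can match several of them, so the gene is uncertain.

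Genes that assemble or carry the receptor were mostly level. The CD3 chains, which pass the signal inward, stayed high: Cd3d read 13.03, 12.96, 12.80 and 12.70, and Cd3g read 12.84, 12.91, 12.87 and 12.73. Cd3e read 12.65 and 12.65 against 12.68 and 12.37. Cd247, the zeta chain, read 11.77 and 11.62 in E2A knockout tumours and 10.11 and 11.31 in Rag with E2A knockout tumours on 1426396_at (-0.98 ± 0.64), and array 3 was the low one. On 1452539_a_at the genotypes overlapped, at 10.04 and 9.68 against 8.66 and 9.74, while on 1420716_at they did not. Ptcra, which encodes the invariant pre-receptor chain, varied within both genotypes, at 11.39 and 8.45 in E2A knockout tumours and 9.85 and 12.23 in Rag with E2A knockout tumours (1.12 ± 0.98). Its sign turned without array 2 (-0.35) or array 4 (-0.07). Of the 5 genes of this list, 0 passed limma's test.

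Dntt, the template-free polymerase that adds nucleotides at receptor junctions, was lower in the Rag with E2A knockout tumours in mean. Its probe set 1449757_x_at read 13.09 and 12.76 against 11.54 and 12.14 (-1.08 ± 0.95), and 1420166_at read 10.78 and 9.48 against 8.81 and 8.93 (-1.26 ± 0.58; limma adjusted p = 0.991). The groups did not overlap on any of its 3 probe sets. The other recombination and end joining genes were level: Xrcc6, a DNA end-binding subunit, read 12.58, 12.47, 12.31 and 12.69. Over the 9 genes of this list that were tested the median difference was -0.02, with 1 gene separated lower and 2 separated higher, shares below the 28.7% and above the 16.4% of all probe sets.

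Among response genes of receptor signalling, Id3, Egr1 and Cd5 read 2-fold or more lower on both Rag with E2A knockout arrays. Of 14 listed genes 11 were tested; 7 were separated lower and 0 higher (28.7% and 16.4% of all probe sets), 3 of the 7 by 2-fold or more (0.595% of all), and the median difference was -0.43. Egr2, Nr4a2, Dusp2 and Cd83 overlapped. By limma 0 of the 12 probe sets passed adjustment and 3 had an unadjusted p below 0.05 (5.02% of all), all lower. Id3, an inhibitor of E proteins that receptor signals induce, read 11.29 and 9.32 in E2A knockout tumours and 7.72 and 7.79 in Rag with E2A knockout tumours (-2.55 ± 0.80, 5.84-fold; adjusted p = 0.574). Egr1, an immediate early zinc-finger factor, read 11.72 and 9.49 against 8.31 and 8.34 (-2.28 ± 0.74, 4.86-fold; limma adjusted p = 0.630). Cd5, a surface inhibitor whose level follows receptor signal strength, read 10.31 and 8.74 against 7.48 and 7.78 (-1.89 ± 0.78, 3.72-fold; limma adjusted p = 0.907). In all 3 genes array 1 was highest, array 2 intermediate and arrays 3 and 4 lowest and close together.

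The other members of the list differed less. Nr4a1, the orphan nuclear receptor NUR77, read 10.56 and 10.45 against 10.15 and 9.99, and Nr4a3, of the same family, read 10.14 and 10.06 against 9.61 and 9.65. Irf4, a transcription factor graded by receptor signal, read 9.96 and 9.11 against 8.77 and 9.07. Egr3 was level, at 10.59, 10.49, 10.46 and 10.41, and so was Dusp2, a phosphatase of MAP kinases, at 10.26, 10.24, 10.29 and 9.92. Relative to the mean of the 13 other backgrounds, Id3 (-2.22 ± 0.58, limma adjusted p = 0.0243), Egr1 (-1.92 ± 0.54, adjusted p = 0.0376) and Nr4a1 (-0.71 ± 0.21, adjusted p = 0.0474) fell in Rag with E2A knockout tumours. Each of these calls was lost without array 3 or without array 4, with adjusted p up to 0.315, 0.344 and 0.475. The Egr1 call was also lost after quantile normalization (adjusted p = 0.0656). The Nr4a1 call was lost under 8 of 12 alternatives, which include median centring (adjusted p = 0.0843), quantile normalization, the stricter filter, the beta-actin covariate and the omission of either E2A knockout array (adjusted p = 0.0521). In E2A knockout tumours the same differences were 0.32 for Id3, 0.36 for Egr1 and -0.28 for Nr4a1, and none passed.

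**Figure D3:**
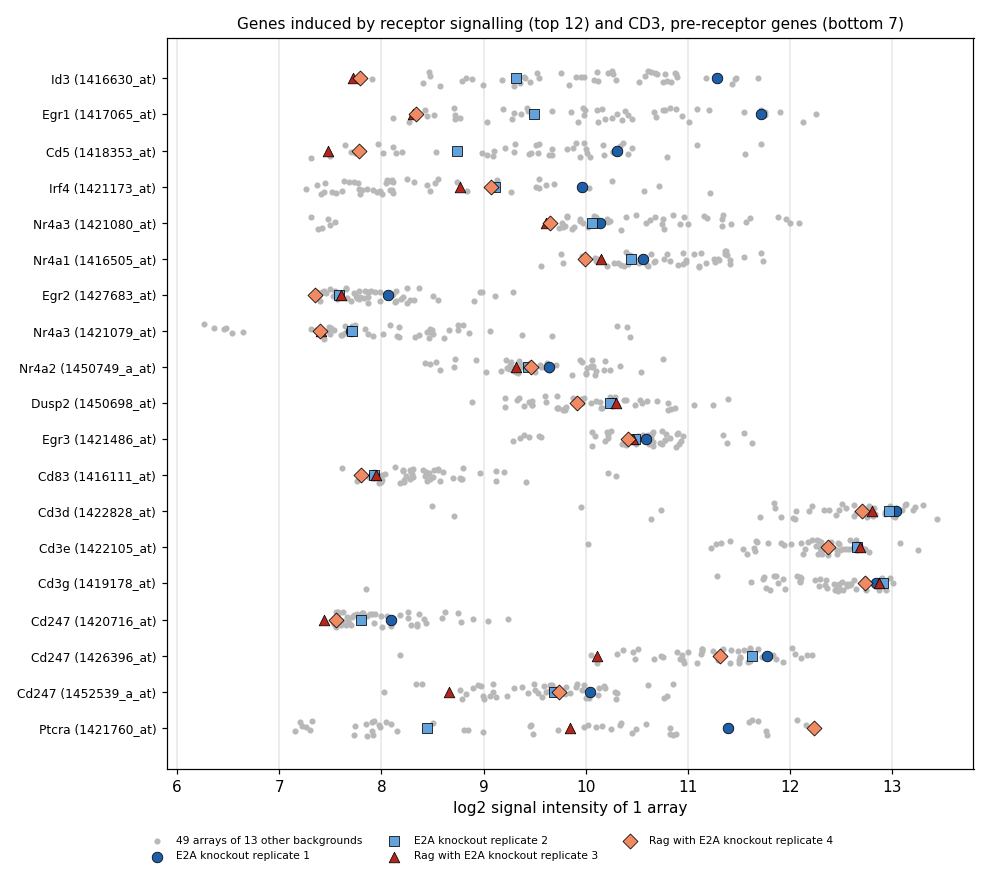
Log2 signal intensity of the 12 tested probe sets of receptor-induced genes (top) and the 7 of CD3 and pre-T-cell receptor genes (bottom) on each array; colours and grey points as for the T-cell receptor probe sets. For Id3, Egr1 and Cd5 arrays 3 and 4 lie at 7.48 to 8.34, left of arrays 1 and 2, while for Cd3d, Cd3e and Cd3g all 4 arrays lie between 12.37 and 13.03.

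Promoter sequence of 3 of these genes is given as background, since E proteins bind E-boxes. The genes were chosen after their values were seen: Id3 and Cd5 separated the genotypes and Ptcra did not. Both genotypes lack E2A, and whether E-boxes bear on the differences between them was not tested. The sequences are from RefSeq (GRCm38.p6), 300 bases around the annotated start, 5′ to 3′ on the gene's strand, with matches to the E-box letters CANNTG in capitals. The motif is its own reverse complement, so both strands are covered. Id3 lies at chr4:136143572-136143871 on the plus strand, Cd5 at chr19:10738925-10739224 on the minus strand and Ptcra at chr17:46763663-46763962 on the minus strand.
Id3: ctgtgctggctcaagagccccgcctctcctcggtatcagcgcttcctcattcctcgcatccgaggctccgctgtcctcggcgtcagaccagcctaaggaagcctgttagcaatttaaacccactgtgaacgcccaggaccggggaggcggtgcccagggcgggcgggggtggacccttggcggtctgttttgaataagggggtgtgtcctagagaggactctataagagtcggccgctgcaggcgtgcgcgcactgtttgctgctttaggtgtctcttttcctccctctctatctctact
Cd5: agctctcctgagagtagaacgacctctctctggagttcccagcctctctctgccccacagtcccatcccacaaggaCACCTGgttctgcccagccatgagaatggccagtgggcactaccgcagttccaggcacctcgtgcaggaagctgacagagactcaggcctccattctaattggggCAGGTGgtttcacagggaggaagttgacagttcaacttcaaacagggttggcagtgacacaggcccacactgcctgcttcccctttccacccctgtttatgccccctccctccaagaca
Ptcra: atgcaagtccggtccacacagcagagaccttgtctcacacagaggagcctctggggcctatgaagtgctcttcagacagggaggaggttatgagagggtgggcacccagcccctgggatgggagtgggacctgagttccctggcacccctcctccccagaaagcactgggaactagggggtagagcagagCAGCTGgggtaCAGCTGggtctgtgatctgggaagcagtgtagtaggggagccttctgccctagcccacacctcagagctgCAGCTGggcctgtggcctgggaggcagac
Id3 held 0 matches in this window, Cd5 2 and Ptcra 3, and the windows of Rag1 and Rag2 held 4 and 2. Of 32851 promoter windows of this length 72.3% held at least 1. The EGR motif GCGNGGGCG, searched on both strands, was found in 5.55% of the windows and in none of these 5. A match describes the letters and is not a measured site.

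Signalling proteins close to the receptor were mostly level, with CD28 as the largest gap. Cd28, the costimulatory receptor gene, read 11.31 and 11.20 in E2A knockout tumours and 10.32 and 9.45 in Rag with E2A knockout tumours (-1.37 ± 0.79; limma adjusted p = 0.999). Rasgrp1, which couples the receptor to Ras, read 9.90 and 9.32 against 8.83 and 9.25 on 1431749_a_at. Its probe set 1421176_at was also separated, but 1450143_at overlapped, at 9.30 and 8.45 against 7.66 and 8.69. Sla, an adaptor that lowers receptor levels, read 11.87 and 11.78 against 10.92 and 11.38 on 1420819_at. On 1420818_at Sla overlapped, at 10.71 and 10.50 against 9.78 and 10.55. Zap70, the kinase recruited to phosphorylated CD3 chains, read 11.62, 11.63, 11.61 and 11.61, and Lat, its scaffold substrate, 12.47, 12.82, 12.94 and 12.62. Of 16 genes tested 4 were separated lower, a share below the 28.7% of all probe sets, and 0 higher, with a median difference of -0.16 and 0 passed by limma.

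The CD8 coreceptor genes, but not Cd4, ran opposite in mean to the T-cell receptor probe sets. Cd8a read 11.05 and 10.30 in E2A knockout tumours and 11.69 and 12.07 in Rag with E2A knockout tumours on 1425335_at (1.20 ± 0.68), and 11.37 and 10.44 against 11.97 and 12.43 on 1451673_at. Cd8b1 read 11.39 and 11.46 against 12.06 and 12.45. Both Rag with E2A knockout arrays were higher on all 3 probe sets, with limma adjusted p = 0.999 for each. Cd4 did not separate the genotypes, at 10.21, 10.55, 10.05 and 10.36. Of the 11 double-positive stage genes tested, 1 was separated lower and 2 higher (28.7% and 16.4% of all probe sets), and the pair that was higher is Cd8a and Cd8b1.

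Array 4 stood apart on other maturation genes. Ccr9, a chemokine receptor of developing thymocytes, read 11.34, 12.85, 12.69 and 9.86 on 1427419_x_at, and the adhesion receptor gene Cd2 read 11.23, 12.20, 12.38 and 9.05. Klf2, a factor of thymic exit, read 10.99, 11.07, 11.07 and 8.98, and Gimap6, a GTPase gene of lymphocytes, 9.99, 11.54, 9.87 and 7.54. Gzma, the granzyme A gene, read 13.22 and 13.43 against 12.36 and 10.85. These values were low on array 4 alone or lowest there, so means over the 2 Rag with E2A knockout arrays rest on 1 of them. Of the 14 mature T-cell genes tested 4 were separated lower and 0 higher (median -0.55), and of the 14 innate-like genes 4 and 2 (median -0.03), with 0 passed by limma in both lists. Over all probe sets 28.7% were separated lower and 16.4% higher, so 4 of 14 lower is close to the background share.

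Of 18 Notch pathway probe sets tested, 1 was higher than in the other backgrounds in Rag with E2A knockout tumours (1.30% of all probe sets were) and 2 in E2A knockout tumours (1.60%). NOTCH1 is the receptor that commits progenitors to the T-cell lineage. Notch1 read 12.78 to 13.44 on 1418634_at, with both Rag with E2A knockout arrays above both E2A knockout arrays (0.49 ± 0.89), and Notch3 read 11.59, 11.26, 11.72 and 11.93 on 1421965_s_at. The target gene Nrarp rose above the mean of the other backgrounds on 1417986_at in Rag with E2A knockout tumours (1.64 ± 0.45; limma adjusted p = 0.0348) and on 1417985_at in E2A knockout tumours (1.998 ± 0.56; adjusted p = 0.0387). Il2ra, the interleukin 2 receptor alpha gene of the double-negative stage and a Notch target, rose in E2A knockout tumours on 1420691_at (2.10 ± 0.54, limma adjusted p = 0.0225). With the Rag deletion that probe set differed by 1.25 and did not pass. The brighter Il2ra probe set 1420692_at was near level on the 4 arrays, at 11.56, 11.07, 10.97 and 11.45. It differed from the other backgrounds by 2.15 in E2A knockout tumours and 2.05 in Rag with E2A knockout tumours (limma adjusted p = 0.143 for each). The Nrarp and Il2ra calls were each lost without either array of the group. The Il2ra call was also lost among the 38 arrays with a like pattern of bacterial control signals (adjusted p = 0.0554) and without the TLX1 and TLX1-RUNX backgrounds (adjusted p = 0.0717), and the Nrarp call in Rag with E2A knockout tumours after quantile normalization (adjusted p = 0.0511). Heyl, a further target, was high on array 1 alone, at 10.30 against 8.46, 8.34 and 8.39. Between the genotypes 4 of the 12 Notch genes tested were separated lower and 2 higher (28.7% and 16.4% of all probe sets), and 0 passed.

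No probe set passed in the direct comparison, so the genes of largest separated difference are given as values; they were chosen after these values were seen. Lower in mean in Rag with E2A knockout tumours, Zfp982, a zinc-finger gene, had the smallest adjusted p, reading 9.67 and 8.62 against 7.16 and 7.08 (-2.02 ± 0.41; limma adjusted p = 0.140). Kctd17 read 10.78 and 9.02 against 7.87 and 7.94 (-1.99 ± 0.64). Ybx3, a Y-box nucleic acid binding protein gene, and Lxn, a carboxypeptidase inhibitor gene, were high on array 1 alone. Ybx3 read 12.28 there and 7.98, 7.79 and 7.86 on arrays 2, 3 and 4, and Lxn read 11.52 and then 7.64, 7.55 and 7.58. Retreg1, an endoplasmic reticulum receptor gene, read 8.76 and 10.60 against 8.01 and 7.34, and Plac8 was low on array 4, at 9.43 against 12.81, 12.61 and 12.11. On arrays 2, 3 and 4 Ybx3 and Lxn lay below all 49 other arrays, so array 2 shared this low reading with the Rag with E2A knockout arrays.

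Higher in mean, Selenop, a secreted selenoprotein gene, read 10.12 and 11.37 in E2A knockout tumours and 12.56 and 12.46 in Rag with E2A knockout tumours (1.76 ± 0.37; limma adjusted p = 0.140). Syt13, a synaptotagmin gene, read 8.07 and 7.65 against 10.26 and 9.61 (2.07 ± 0.51; limma adjusted p = 0.357). Prkd3, a protein kinase D gene, read 9.58 and 7.92 against 10.78 and 10.61. Rnf130, a ubiquitin ligase gene, read 8.09 and 8.07 against 10.56 and 9.52, and both E2A knockout arrays lay below all 49 other arrays (9.08 at lowest). Plagl1, a zinc-finger factor gene, was high on array 4 alone, at 11.74 against 7.61, 7.26 and 7.82. The chemokine gene Ccl8 read 8.57 and 8.54 against 9.63 and 10.98. Ctse, a cathepsin gene, was lowest on array 1, at 9.30 against 11.53 to 12.49 on 1427797_s_at, but overlapped on its other probe set. Zfp982, Selenop and Syt13 each passed limma's test when the fit used only the 38 arrays that share their pattern of bacterial control signals (adjusted p = 0.0320 for each), as did Yipf2.

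The largest difference of any probe set was on an unnamed one and ran opposite to the 13 named T-cell receptor probe sets. Whether the unnamed probe sets below read receptor segments themselves is not known. 1427656_at, which the gene table does not name, read 8.19 and 7.67 in E2A knockout tumours and 12.99 and 12.67 in Rag with E2A knockout tumours (4.90 ± 2.04, 29.8-fold; limma adjusted p = 0.907). The other arrays spanned 7.62 to 13.72, so it is strongly variable over the series. The unnamed probe set 1426158_at gave the same pattern, at 7.61 and 7.41 against 9.75 and 9.65. 1427667_s_at, also unnamed, gave the opposite one, at 9.04 and 9.69 against 7.21 and 7.14.

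**Figure D4:**
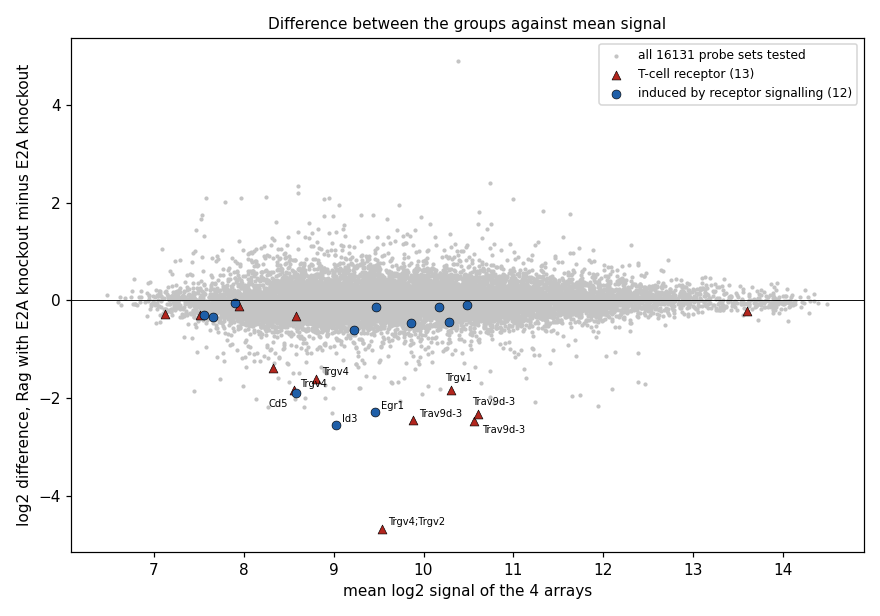
Difference of group means (Rag with E2A knockout minus E2A knockout, log2) against the mean log2 signal of the 4 arrays, for each of the 16131 probe sets tested (grey), the 13 T-cell receptor probe sets (red triangles) and the 12 of receptor-induced genes (blue circles). The lowest point is the Trgv4 and Trgv2 probe set at -4.67, and the highest is the unnamed probe set 1427656_at at 4.90.

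Some markers of other cells differed between the genotypes, and others stood out on 1 array. In bulk tumour RNA fewer cells of a type and less RNA per cell cannot be told apart. Macrophage complement genes were higher on both Rag with E2A knockout arrays: C1qc read 8.18 and 8.67 against 10.21 and 10.14 (1.75 ± 0.44; limma adjusted p = 0.425) and C1qa read 9.17 and 9.40 against 10.99 and 10.72. Apoe, a lipoprotein gene abundant in macrophages, read 9.04 and 10.88 against 12.29 and 11.77. Of the 17 myeloid genes tested 10 were separated higher and 4 lower (16.4% and 28.7% of all probe sets). The neutrophil genes S100a8 (9.30, 8.63, 7.94 and 7.68) and S100a9 (9.35, 8.25, 7.73 and 7.39) were among the lower ones. The summed myeloid level was 13.12 and 13.35 in E2A knockout tumours and 14.02 and 13.73 in Rag with E2A knockout tumours (log2). All 4 lay below the median of the other arrays (14.75, range 13.06 to 16.58). Relative to the other backgrounds 11 of 21 myeloid probe sets were lower in E2A knockout tumours (1.26% of all probe sets) and 4 in Rag with E2A knockout tumours (1.82%), among them C1qc in the first (-2.74 ± 0.32; limma adjusted p = 5.64e-07). Without 1 of the group's own arrays all 4 calls in Rag with E2A knockout tumours and 5 of the 11 in E2A knockout tumours were lost; C1qc was kept.

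Of 26 stromal, endothelial and epithelial probe sets, 11 were lower than in the other backgrounds in E2A knockout tumours (1.26% of all probe sets) and 10 in Rag with E2A knockout tumours (1.82%), with Sparc, a matrix glycoprotein gene, at 7.40, 7.18, 7.98 and 8.22 on 1448392_at. All 10 calls in Rag with E2A knockout tumours and 6 of the 11 in E2A knockout tumours were lost without 1 of the group's own arrays. Array 3 stood apart on Epcam and Gja1. Epcam, an epithelial adhesion gene, read 12.01 there and 7.74, 8.06 and 7.97 on arrays 1, 2 and 4. Gja1, the connexin 43 gene, which is not in this list, read 10.74 there and 6.77, 7.06 and 7.29. The listed keratin genes Krt8 and Krt5 differed less between the genotypes than Fn1 did (0.82), each on its probe set of highest mean. Haemoglobin genes were low on array 3, with the Hbb probe set 1417184_s_at at 9.81 against 12.94, 13.50 and 13.27. Of the 15 stromal, endothelial and epithelial genes tested 6 were separated higher and 4 lower in Rag with E2A knockout tumours, and of the 6 erythroid genes 0 and 2 (16.4% and 28.7% of all probe sets). The summed stromal level was 12.69, 12.41, 13.67 and 12.63.

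Ighm message was also lowest on array 3, while kappa light chain signal was level over the 4 arrays. Ighm, the mu heavy chain gene, read 12.61 and 11.07 in E2A knockout tumours and 8.76 and 10.72 in Rag with E2A knockout tumours on 1427351_s_at (-2.10 ± 1.05), a separated order like that of the alpha chain probe sets. Kappa light chain signal was low on all 4 arrays, with 1452417_x_at at 6.71, 6.60, 6.72 and 6.69. In E2A knockout tumours that probe set differed from the mean of the other backgrounds by -4.37 ± 0.59 (limma adjusted p = 8.21e-06). In Rag with E2A knockout tumours it differed by -4.32 ± 0.59 (limma adjusted p = 1.44e-05). Cd79a, of the B-cell receptor, read 8.12, 8.27, 7.93 and 7.99. The summed B-cell level was 13.25, 12.38, 11.71 and 12.16 (12.09 to 15.60 on the other arrays). The part of the macrophage, epithelial, erythroid and B-cell markers in the differences described above was not tested.

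**Figure D5:**
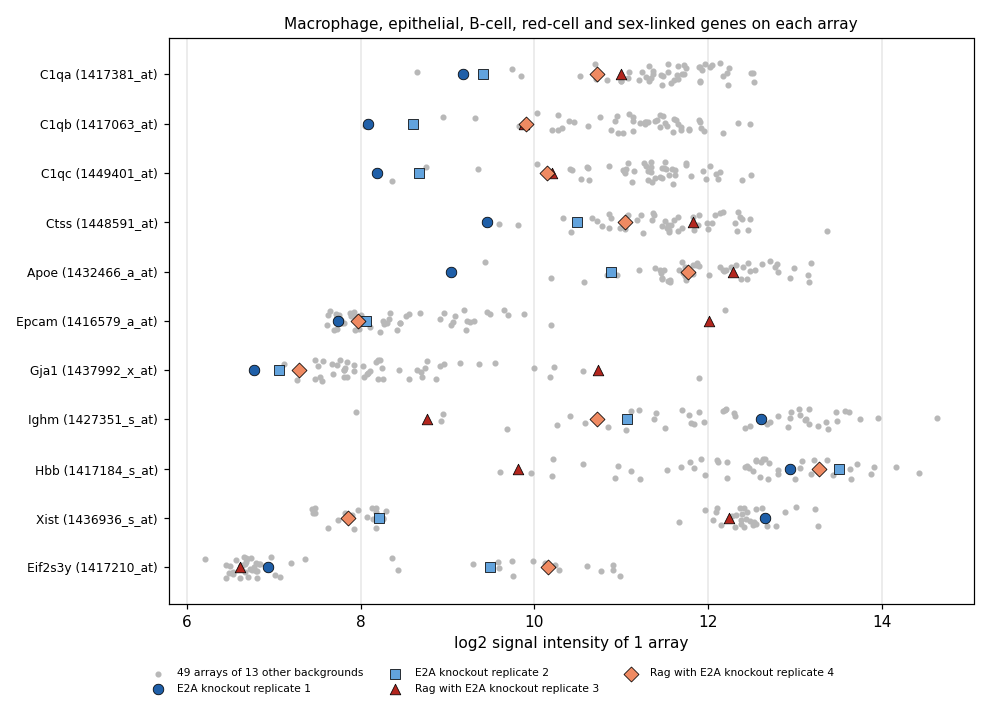
Log2 signal intensity of macrophage, epithelial, B-cell, red-cell and sex-linked genes on each array; colours and grey points as for the T-cell receptor probe sets. C1qa, C1qb and C1qc separate the genotypes (8.08 to 9.40 against 9.88 to 10.99), Epcam and Gja1 are high and Hbb low on array 3, and Xist is high on arrays 1 and 3 and low on arrays 2 and 4.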

How the data were processed

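Tumour RNA was extracted with Trizol and labelled with biotin as cRNA, per the labels. The authors deposited 1 linear intensity for each probe set and array. Scaling method: not given in the sources used here. It can alter differences in overall level. The deposited values were converted to log2. Gene names came from the platform table and RefSeq: 20393 had 1 symbol, 691 several and 1606 none used here, and 20364 matched by Entrez identifier. The 64 control probe sets were left out, and those above their array median on at least 2 of 53 arrays were kept (16131). No 2 arrays held identical values.

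The model was a limma 3.58.1 fit (lmFit, eBayes; R 4.3.3) with 1 mean for each of 15 backgrounds over all 53 arrays (38 residual degrees of freedom), two-sided, Benjamini-Hochberg adjusted across probe sets at a threshold of 0.05. SEs are those of this fit. Groups are called separated where both arrays of one lie below both of the other. In lists, a gene is counted by its probe set of highest mean. The members and gene lists were chosen with earlier results of these data known. Named genes are all T-cell receptor, Tcf3, Rag, CD3 and pre-T-cell receptor probe sets, list members of largest difference, and, since none passed, the 10 lowest and 10 highest separated differences of probe sets with 1 symbol, a rule added after the values were seen; others named from the lists were also picked after their values were seen. Array sets came from clustering on 27 bacterial control probe sets; all 4 arrays shared the set of 38. The number of arrays limits the precision. The fit was tested on simulated data. Python 3.11.15, NumPy 2.4.6, pandas 2.3.3 and Matplotlib 3.10.9 were used for summaries and plots.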

Additional observations from a re-analysis of the deposited data

How the results depend on the processing

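In the direct comparison 0 probe sets passed limma's test in either direction (809 at an unadjusted p below 0.05). The count stayed 0 in both directions with a stricter filter, quantile normalization, centred arrays, a trended and robust prior, the beta-actin ratio as covariate, 1 probe set or the mean of probe sets a gene, and the 4 arrays alone (1310 unadjusted). It was 1 higher without a filter, 1 lower without the TLX1 and TLX1-RUNX backgrounds, and 2 higher and 2 lower within the same array set. Leaving out 1 array gave 0 to 14 higher (14 without array 4, led by the unnamed 1448754_at and by Scel, which array 3 alone carries) and 0 to 15 lower (15 without array 2, among them Prss2 and Lxn, which array 1 alone carries). T-cell receptor and list probe sets passed under none of these.

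Against the 13 other backgrounds, the 210 higher in Rag with E2A knockout tumours became 110 with 1 probe set a gene, 128 with gene means, 425 with centred arrays, 403 within the array set and 12 to 205 without 1 array. The 294 lower became 175, 192, 178 and 1090, then 464 without a filter, 147 after quantile normalization, 75 with a stricter filter, 597 without the TLX1 backgrounds and 10 to 278 without 1 array. The 258 higher in E2A knockout tumours became 171 with gene means, 457 within the array set and 18 to 259 without 1 array. The 204 lower became 133, 489, 95 with a stricter filter and 32 to 200 without 1 array. Of 34 such calls in the lists, leading genes and T-cell receptor probe sets for Rag with E2A knockout tumours 31 were lost without 1 of its arrays, and 23 of 39 for E2A knockout tumours.

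Some differences changed sign when 1 array was left out, and each range below spans the 4 omissions. Between the genotypes they were -0.14 to 0.38 for Tcf3 1426297_at, -0.45 to 0.044 for Rag1, -0.53 to 0.86 for Rag2, -0.35 to 2.59 for Ptcra, -0.28 to 0.024 for Cd3e and -0.44 to 0.0093 for Trbv1. For E2A knockout tumours against the others they were -0.84 to 1.81 and -0.89 to 1.998 for Trgv4, -0.70 to 1.48 for Trbv13-2, -0.98 to 0.18 and -0.96 to 0.15 for Trav9d-3, -0.17 to 0.032 for Trav12n-1, -0.78 to 0.62 for Rag2 and -0.013 to 4.22 for Prss2. For Rag with E2A knockout tumours against the others Trgv1 spanned -2.10 to 1.10, and Rag2 was -0.018 within the array set. The cause was not tested. No paired analysis was possible because the titles number the 4 arrays in 1 series, so the groups share no replicate number. A left-out array leaves a lone array, which is then assumed to vary like the other groups.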

Other observations

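Proliferation genes differed little in median between the genotypes. For the counts that follow, 28.7% of all probe sets were separated lower and 16.4% higher in Rag with E2A knockout tumours. Of 24 DNA replication genes tested 1 was separated lower and 0 higher, with a median difference of -0.06, and 0 passed limma's test. Pcna, the replication clamp gene, read 13.35 and 13.37 in E2A knockout tumours and 13.28 and 13.59 in Rag with E2A knockout tumours. Of 20 mitosis genes 3 were separated higher and 1 lower (median 0.11), among them Kif20a, a kinesin gene of cell division, at 9.77 and 9.65 against 10.16 and 10.28. Interferon-stimulated genes gave 6 separated lower and 0 higher of 11, with a median of -0.25, 0 passed by limma, and Oas1a at 9.78 and 8.91 against 8.88 and 8.69. Of the 12 p53 target genes tested the death receptor gene Fas had the largest difference, at 7.23 and 8.12 against 9.53 and 8.37 (1.27 ± 0.40; limma adjusted p = 0.574). Cdkn1a, the cell cycle inhibitor gene, did not separate the genotypes, at 10.10, 8.95, 9.23 and 8.97 on 1424638_at. Early progenitor genes gave 6 separated lower and 1 higher of 15, with a median of -0.11.

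Some genes split the arrays across genotype. Tcf4, the gene of another E protein, read 9.26 and 8.56 on arrays 1 and 3 and 6.91 and 6.93 on arrays 2 and 4 (1434148_at), and arrays 2 and 4 lay below all 49 other arrays (7.20 at lowest). The collagen gene Col1a2 gave the same split on 1423110_at, at 9.89 and 11.04 against 7.35 and 7.71. Xist was high on arrays 1 and 3 as well. Class II antigen presentation genes gave 4 separated lower and 0 higher of 7, with Cd74, the invariant chain gene, at 10.84, 10.52, 10.23 and 9.56. The unnamed probe set 1427184_at was low on array 1 alone, at 7.33 against 11.75, 12.03 and 11.86.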
